A study of Mus musculus with 6 samples.

Results

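Respiratory chain assembly factors are proteins that build the complexes of oxidative phosphorylation without remaining in them. RNA for 38 of their genes was followed in 6 libraries of a mouse beige adipogenesis course, from before induction to day 6. The 38 were chosen by gene symbol, from a list that sorts them by the complex they serve, and all of them were found among the 45808 genes of the count table. Of these, 13 serve complex I, 2 complex II, 3 complex III, 17 complex IV and 3 complex V.

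The cells were the stromal-vascular fraction of subcutaneous inguinal white adipose tissue (iWAT), which holds adipocyte precursors, from wild-type (WT) male mice 8 weeks old. Day 0 was the confluent culture before any induction. Day 2 came after 2 days in an induction medium that held insulin (850 nM), T3 (1 nM, a thyroid hormone), rosiglitazone (1 µM, an agonist of PPAR gamma), IBMX (0.5 mM, which blocks phosphodiesterases), dexamethasone (5 µM) and indomethacin (125 µM). Day 6 came after a change to medium with only the first 3 of these at the doses named, and each day had 2 libraries, numbered 76 and 77. The submitters call them biological replicates. No source used here says whether a number stands for a mouse or a culture, and the p-values can only speak for the spread of these libraries. The series title concerns Naa10p, and all 6 libraries used here were WT.

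In oxidative phosphorylation, complexes I to IV pass electrons to oxygen, complexes I, III and IV pump protons, and complex V uses the proton gradient to make ATP. The subunits of complexes I, III, IV and V are encoded partly in the nucleus and partly in mitochondrial DNA. To become active, the complexes need factors that join their modules in order. Where a complex holds iron-sulfur clusters, flavin, heme or copper, factors also insert these. Inherited loss of many of these factors causes mitochondrial disease in humans. Brown and beige adipocytes are known for dense mitochondria.

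Levels below are given in CPM, a gene's reads per 1000000 reads assigned to genes in its library, scaled between libraries by the TMM method. Gene counts ranged from 22522221 to 29458374 per library, and 3 counts, the limit that a count of 0 allows, came to 0.0994 to 0.150 CPM. Summed adipocyte marker RNA was 1076 and 1248 CPM at day 0, 10810 to 11690 CPM at day 2 and 49460 to 58080 CPM at day 6, and all 10 markers passed the test as higher in each comparison. Of 8 proliferation markers, 8 were higher at day 2 than at day 0 and 8 lower at day 6 than at day 2, with sums of 319 and 329, 1184 to 1261 and 138 to 163 CPM at days 0, 2 and 6. Summed macrophage markers reached 124 CPM in day 6 library 76 and 52.9 CPM in day 6 library 77, against 41.8 and 48.4 CPM at day 0, with 4 of 8 higher and 0 lower at day 6. Fibroblast progenitor markers summed to 848 and 1277 CPM at day 6, against 2509 and 2519 CPM at day 0, with 7 of 8 lower. At day 6 against day 0, 5 of 6 endothelial, 5 of 7 mural and 2 of 5 Schwann cell markers were lower and 1, 2 and 1 higher. Beside these marker counts, 35.9% of all genes tested were higher and 35.1% lower at day 6 against day 0. The shares were 33.6% higher at day 2 against day 0, and 38.2% higher and 27.5% lower at day 6 against day 2. Endothelial marker sums were 36.4 and 31.8 CPM at day 0, 13.6 and 14.4 CPM at day 2, and 34.7 and 35.3 CPM at day 6, so days 0 and 6 overlapped. Egfl7, the 1 endothelial marker that was higher, made up 22.43 and 19.55 CPM of the day 6 sums, against 2.285 and 1.895 CPM at day 0. Mural marker sums were 146 and 147 CPM at day 0, 42.1 and 38.9 CPM at day 2, and 121 and 124 CPM at day 6. The 2 mural markers that were higher, Notch3 and Cspg4, made up 68.18 and 82.24 CPM and 24.26 and 17.21 CPM of the day 6 sums. Schwann cell marker sums were 112 and 152 CPM at day 0, 15.7 and 21.9 CPM at day 2, and 35.3 and 32.3 CPM at day 6. Of the defining markers, Cldn5 had 0 counts in day 2 library 77 and day 6 library 77, and Kcnj8 had 0 in day 6 library 76. In bulk RNA, fewer cells of a type and less RNA per cell cannot be told apart. The part that these mixed cell types play in the changes below was not tested. Ucp1, the uncoupling protein of beige fat, had 0 and 0 counts at day 0, 13 and 10 counts at day 2, and 1 and 0 counts at day 6. Ppargc1a, a coactivator of mitochondrial genes, had 0.894 and 0.700 CPM at day 0, 5.20 and 5.43 CPM at day 2, and 47.7 and 39.6 CPM at day 6.

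Factors of every complex gained RNA over the course. At day 6 against day 0, 35 of the 37 members tested were higher and 0 lower, with a median log2 change of 1.46. Over all 14459 genes tested, 35.9% were higher and 35.1% lower in that comparison, 70.9% in either direction, and the median log2 change was -0.01. In CPM, 36 members lay wholly above their day 0 libraries at day 6, where 86.9% of all genes tested did not overlap. A joint edgeR test over the 3 days called 35 of the 37, beside 84.8% of all genes. The remaining member, Sco2, which delivers copper to subunit 2 of complex IV, had 0 counts in every library and was not tested. The largest change was in Atpaf2, the chaperone of the F1 alpha subunit of complex V, 8.30-fold higher at day 6. The members that missed the test were Cox17, a copper chaperone, at a log2 change of 0.49 (SE 0.25, edgeR quasi-likelihood adjusted p = 0.116), and Cox20, a chaperone of subunit 2, at -0.09 (SE 0.34, edgeR adjusted p = 0.820). The calls of Ttc19 and Cox16 at day 6 against day 0 were lost with library totals alone, with DESeq2 and when single libraries were left out, and the other 33 calls held in every setting tried.

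At day 2 against day 0, 28 members were higher and 2 lower, with a median log2 change of 0.85, beside 33.6% of all genes higher, 33.6% lower, 67.1% in either direction and a median of 0.00. In CPM, 32 members lay wholly above and 4 wholly below day 0, where 86.1% of all genes did not overlap. At day 6 against day 2, 32 members were higher and 0 lower, with a median log2 change of 0.81, beside 38.2% of all genes higher, 27.5% lower, 65.7% in either direction and a median of 0.12. In CPM, 35 members lay wholly above day 2, where 82.4% of all genes did not overlap. Both comparisons use the day 2 libraries, so an error in those libraries moves the 2 changes in opposite directions. The day 6 against day 2 counts also depended on scaling. With library totals alone the median of all genes moved to -0.23, and 21 members were higher and 2 lower, namely Ndufaf2 and Ttc19. The calls lost there were those of Acad9, Timmdc1, Ndufaf4, Ndufaf6, Sdhaf2, Bcs1l, Sco1, Coa6, Cox14, Cox20 and Lrpprc. At day 2 against day 0, the calls of Ndufaf6, Sdhaf1, Coa3, Coa6 and Atpaf1 were lost without day 0 library 76, and those of Ndufaf5, Coa3, Coa6 and Atpaf1 without day 2 library 76.

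**Figure D1:**
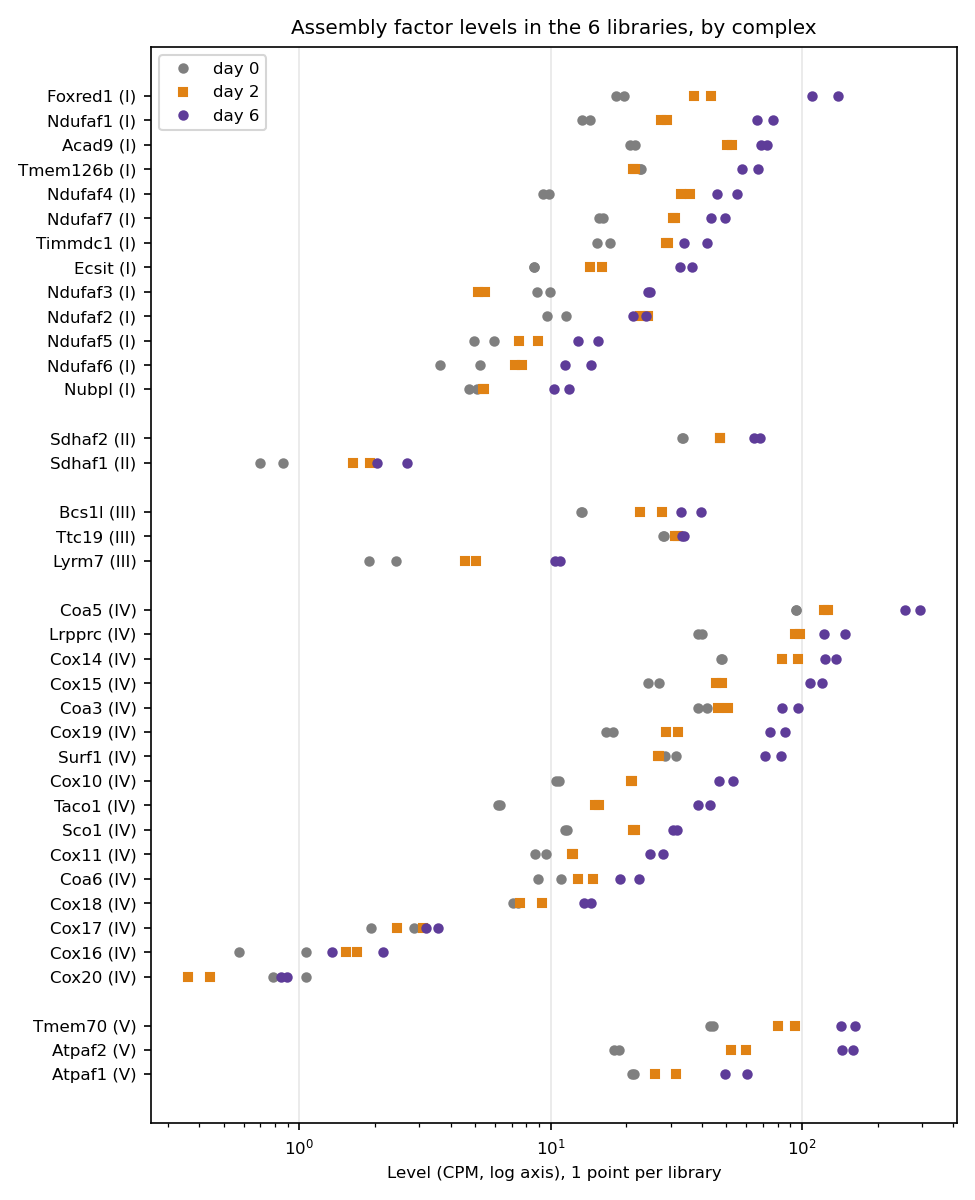
Level of 37 assembly factors in each library on a log10 axis of CPM (Sco2, with 0 counts throughout, is not drawn), grouped by complex, with 2 points for each of days 0, 2 and 6. Atpaf2 stands at 159.5 and 144.8 CPM at day 6 against 18.7 and 17.9 CPM at day 0, while Cox20 lies between 0.360 and 1.06 CPM on all days.

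The promoters of the factors were searched for recognition sequences of known regulators of mitochondrial genes. NRF1 and GABP, an ETS factor also called NRF2, are transcription factors known to bind promoters of respiratory genes. Of the 38 members, 32 matched promoter windows of RefSeq (build GRCm38.p6), each running over 250 bases before and 50 bases after a transcript start, which gave 34 windows. Searched on both strands, the NRF1 sequence (the letters in capitals in the Ndufaf4 promoter below) was in 2 of the 34 windows (5.88%), those of Ndufaf4 and Ndufaf5, and in 0.971% of all 32851 windows. The GABP sequence CCGGAAGT was in 6 windows (17.6%), of Bcs1l, Cox10, Cox14, Cox15, Cox16 and Timmdc1, and in 3.89% of all windows. The YY1 sequence AAGATGGC was in 4 windows (11.8%), of Atpaf2, Cox10, Cox20 and Tmem126b, and in 2.75% of all windows. The sequence TCAAGGTCA, bound by estrogen-related receptors, was in 0 of the 34 windows and in 0.423% of all windows. These are letter matches and not binding sites, and the motifs were chosen with earlier results known.

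Of the 11 members with any of these matches, 2 are shown as examples, Ndufaf4 because its NRF1 match lies before the start and that of Ndufaf5 after it, and Timmdc1 because its window held 2 GABP matches and those of the other 5 genes 1 each. The last 150 bases before the start are printed for Ndufaf4 (chr4:24897933-24898082, plus strand), with the NRF1 match at -113 to -104 from the start in capitals, and for Timmdc1 (chr16:38522664-38522813, minus strand), with GABP matches at -145 to -138 and -8 to -1 in capitals.
Ndufaf4: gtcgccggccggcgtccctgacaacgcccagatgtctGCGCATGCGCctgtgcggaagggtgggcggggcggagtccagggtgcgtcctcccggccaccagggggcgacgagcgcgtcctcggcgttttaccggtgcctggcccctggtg
Timmdc1: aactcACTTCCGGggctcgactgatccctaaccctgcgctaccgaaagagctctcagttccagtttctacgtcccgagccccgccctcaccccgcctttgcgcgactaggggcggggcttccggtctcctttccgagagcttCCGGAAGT
Of the genes with the NRF1 letters, Ndufaf4 had a log2 change of 1.84 at day 2 against day 0 and Ndufaf5 one of 0.59. Cox20 and Tmem126b, with the YY1 letters, stood at -1.20 and -0.09. Cox16, with the GABP letters, was not called at day 2 (edgeR adjusted p = 0.0505), and all other members with a match were higher. Whether the matches bear on these changes was not tested. Timmdc1, a membrane arm factor of complex I that carries 2 GABP matches, had a day 2 log2 change of 0.85 (SE 0.12, edgeR adjusted p = 0.000286). Its day 6 against day 2 change of 0.38 (edgeR adjusted p = 0.0165) lost its call with library totals alone, with DESeq2, in a fit of only those 2 days and without any of 4 single libraries.

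All 13 complex I factors were higher at day 6 than at day 0, at a median log2 change of 1.55. Foxred1, of the FAD-dependent oxidoreductases, lies at chr9:35204206-35211055 (GRCm38, minus strand). It had 19.6 and 18.2 CPM at day 0, 43.4 and 37.2 CPM at day 2, and 140 and 110 CPM at day 6. Each day lay wholly above the one before it. The day 6 against day 0 change was 6.60-fold (log2 2.72, SE 0.13, edgeR adjusted p = 5.74e-07).

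Ndufaf1, Ecsit, Acad9 and Tmem126b form the MCIA complex, which builds the membrane arm of complex I. Ndufaf1 had 14.3 and 13.3 CPM at day 0, 27.5 and 29.1 CPM at day 2, and 76.7 and 66.3 CPM at day 6. Ecsit had 8.61 and 8.57 CPM at day 0, 16.0 and 14.4 CPM at day 2, and 36.5 and 32.8 CPM at day 6. Neither gene overlapped between days. Ndufaf1 was 5.17-fold higher at day 6 than at day 0 (log2 2.37, SE 0.10, edgeR adjusted p = 2.27e-07), and Ecsit 4.03-fold higher (log2 2.01, SE 0.10, edgeR adjusted p = 8.37e-07). The other MCIA members divided differently between the steps. Acad9 had a log2 change of 1.29 (SE 0.07) at day 2 against day 0 and 0.45 (SE 0.07) at day 6 against day 2, the second lost with library totals alone. Tmem126b had 22.8 and 22.8 CPM at day 0, 21.3 and 21.7 CPM at day 2, and 66.7 and 57.9 CPM at day 6. Its day 2 log2 change against day 0 was -0.09 (SE 0.09, edgeR adjusted p = 0.421), and 0.03 with library totals alone. Its day 6 change against day 2 was 1.54 (SE 0.09, edgeR adjusted p = 2.00e-06).

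The partners Ndufaf3 and Ndufaf4, which act together early in the quinone module of complex I, moved in opposite directions at day 2. Ndufaf3 (chr9:108565537-108567434, minus strand) had 8.84 and 9.97 CPM at day 0, 5.13 and 5.50 CPM at day 2, and 24.3 and 24.9 CPM at day 6. Its day 2 libraries were the lowest and its day 6 libraries the highest, with no overlap between days. It fell 1.76-fold at day 2 (log2 -0.82, SE 0.12, edgeR adjusted p = 0.000381) and was 4.62-fold higher at day 6 than at day 2 (log2 2.21, SE 0.11, edgeR adjusted p = 1.26e-06). In the 12 other settings the day 2 log2 change ranged over -0.91 to -0.59, and every one passed the test.

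Ndufaf4 (chr4:24898083-24905001, plus strand) had 9.87 and 9.31 CPM at day 0, 35.8 and 33.2 CPM at day 2, and 55.4 and 45.7 CPM at day 6. Here too no days overlapped. It was 3.59-fold higher at day 2 than at day 0 (log2 1.84, SE 0.11, edgeR adjusted p = 3.85e-06) and 1.47-fold higher at day 6 than at day 2 (log2 0.55, SE 0.10, edgeR adjusted p = 0.00161). The second call was lost with library totals alone, at an adjusted p of 0.104. The ratio of Ndufaf3 to Ndufaf4 CPM, which no library scaling alters, was 0.896 and 1.07 in the day 0 libraries, 0.143 and 0.166 in those of day 2, and 0.439 and 0.544 in those of day 6. It was lowest in the day 2 libraries and highest in those of day 0.

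Ndufaf2, a late factor related to subunit Ndufa12, had 11.5 and 9.68 CPM at day 0, 22.6 and 24.4 CPM at day 2, and 24.0 and 21.4 CPM at day 6. Its days 2 and 6 overlapped. The log2 change was 1.15 (SE 0.11, edgeR adjusted p = 4.63e-05) at day 2 against day 0, and -0.05 (SE 0.11, edgeR adjusted p = 0.703) at day 6 against day 2. Ndufaf5, which hydroxylates an arginine of subunit Ndufs7, was 2.59-fold higher at day 6 than at day 0, and Ndufaf7, an arginine methyltransferase, was 2.93-fold higher. Ndufaf6 was 2.94-fold higher. Nubpl, which delivers iron-sulfur clusters, was 2.24-fold higher at day 6 than at day 0, with a day 2 log2 change of 0.13 (SE 0.15, edgeR adjusted p = 0.450).

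Both complex II factors were higher at day 6 than at day 0. Sdhaf2, which attaches flavin to Sdha, had 33.6 and 33.2 CPM at day 0, 47.2 and 47.1 CPM at day 2, and 68.2 and 64.5 CPM at day 6. No days overlapped, and the day 6 level was 1.99-fold that of day 0 (log2 0.99, SE 0.07, edgeR adjusted p = 3.61e-06). Sdhaf1, which helps insert iron-sulfur clusters into Sdhb, had low counts, with 21 and 21 counts at day 0, 48 and 53 counts at day 2, and 60 and 41 counts at day 6. In CPM, which allows for library size, its days did not overlap. The day 6 against day 2 change was however not called (log2 0.42, SE 0.26, edgeR adjusted p = 0.191). Its change was 3.05-fold at day 6 against day 0 (log2 1.61, SE 0.30, edgeR adjusted p = 0.00131).

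The complex III factors act on the Rieske iron-sulfur protein, and their 3 genes were all higher at day 6 than at day 0, over a wide range of sizes. Lyrm7, its chaperone, had 2.42 and 1.90 CPM at day 0, 5.07 and 4.57 CPM at day 2, and 10.9 and 10.4 CPM at day 6. Bcs1l, the ATPase that inserts the Rieske protein, had 13.3 and 13.2 CPM at day 0, 27.8 and 22.8 CPM at day 2, and 39.6 and 33.1 CPM at day 6. In both genes the days lay apart. Lyrm7 was 4.89-fold higher at day 6 than at day 0 (log2 2.29, SE 0.17, edgeR adjusted p = 7.16e-06) and Bcs1l 2.74-fold higher (log2 1.46, SE 0.13, edgeR adjusted p = 1.72e-05). Ttc19, which clears Rieske fragments, changed by only 0.26 on the log2 scale (SE 0.07, edgeR adjusted p = 0.0124). That call was lost with library totals alone, with DESeq2 and without either day 0 library.

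Of the 16 complex IV factors tested, 14 were higher at day 6 than at day 0 and 0 lower, at a median log2 change of 1.44. Among the factors for mitochondrial mRNA, Taco1, the translational activator of subunit 1 (chr11:106066061-106073612, plus strand), had 6.19 and 6.30 CPM at day 0, 15.6 and 15.1 CPM at day 2, and 43.1 and 38.7 CPM at day 6. Its days lay far apart compared with the spread within a day. It was 6.54-fold higher at day 6 than at day 0 (log2 2.71, SE 0.10, edgeR adjusted p = 1.31e-07). Lrpprc, which keeps mitochondrial mRNAs stable, had a log2 change of 1.29 (SE 0.10) at day 2 against day 0 and 0.50 (SE 0.09) at day 6 against day 2, the second lost with library totals alone.

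The heme factors were all higher at day 6. Cox10, heme O synthase, had 10.5 and 10.8 CPM at day 0, 21.1 and 20.9 CPM at day 2, and 53.2 and 46.9 CPM at day 6. Cox15, heme A synthase, had 27.1 and 24.4 CPM at day 0, 48.0 and 45.6 CPM at day 2, and 121 and 108 CPM at day 6. The consecutive enzymes thus each showed 3 separate levels. Cox10 was 4.71-fold higher at day 6 than at day 0 (log2 2.24, SE 0.09, edgeR adjusted p = 2.49e-07) and Cox15 4.43-fold higher (log2 2.15, SE 0.09, edgeR adjusted p = 2.12e-07). Surf1, which acts at the heme a stage of subunit 1, had 31.6 and 28.6 CPM at day 0, 26.6 and 26.9 CPM at day 2, and 82.9 and 71.2 CPM at day 6. Its log2 change was -0.17 (SE 0.09, edgeR adjusted p = 0.142) at day 2 against day 0 and 1.53 (SE 0.09, edgeR adjusted p = 2.90e-06) at day 6 against day 2.

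Of the 5 copper factors tested, 4 were higher in each comparison. For Coa6 the day 2 against day 0 call was lost without library 76 of either day, and the day 6 against day 2 call with library totals alone and without day 2 library 77. For Sco1 the day 6 against day 2 call was lost with library totals alone (edgeR adjusted p = 0.0734). Cox19, a copper handling protein of the twin CX9C family, had 16.6 and 17.7 CPM at day 0, 32.1 and 28.8 CPM at day 2, and 85.6 and 74.3 CPM at day 6. Its days did not overlap, and it was 4.67-fold higher at day 6 than at day 0 (log2 2.22, SE 0.10, edgeR adjusted p = 3.64e-07). Cox11, Sco1 and Coa6, which bring copper to subunits 1 or 2, were 2.90-fold, 2.72-fold and 2.08-fold higher.

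Of the 5 factors that handle subunits 1 and 2, 4 were higher at day 6 than at day 0. Cox14 and Coa3, which hold newly made subunit 1, were 2.71-fold and 2.24-fold higher, and Cox18, which inserts the tail of subunit 2, was 1.93-fold higher. Cox16, which matures subunit 2, was 2.10-fold higher (SE 0.38 on the log2 scale, edgeR adjusted p = 0.0325), on 14 to 48 counts, a call lost with library totals alone, with DESeq2 and without any of 4 single libraries. Cox20 had 32 and 19 counts at day 0, 13 and 10 counts at day 2, and 20 and 17 counts at day 6, all between 0.360 and 1.06 CPM. Its day 2 libraries were below those of the other days. Its log2 change was -1.20 (SE 0.37, edgeR adjusted p = 0.0191) at day 2 against day 0 and 1.11 (SE 0.38, edgeR adjusted p = 0.0325) at day 6 against day 2. The fall was lost in DESeq2 and without any 1 of the 4 libraries of days 0 and 2, and the increase with library totals alone, with DESeq2, in a fit of only those 2 days and without any 1 of the 6 libraries. Coa5, another twin CX9C protein, had 94.4 and 94.5 CPM at day 0, 123 and 127 CPM at day 2, and 296 and 258 CPM at day 6, and was 2.93-fold higher at day 6 than at day 0.

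All 3 complex V factors were higher in each comparison, although the day 2 against day 0 call of Atpaf1 was lost without library 76 of either day (edgeR adjusted p up to 0.113). Atpaf2 (chr11:60400626-60418457, minus strand) had 18.7 and 17.9 CPM at day 0, 59.7 and 52.4 CPM at day 2, and 159.5 and 144.8 CPM at day 6. Tmem70, which helps assemble the ring of c subunits, had 44.1 and 43.1 CPM at day 0, 93.6 and 80.5 CPM at day 2, and 163 and 142 CPM at day 6. Neither gene overlapped between days. Atpaf2 had a log2 change of 3.05 at day 6 against day 0 (SE 0.09, edgeR adjusted p = 5.40e-08), and Tmem70 one of 1.81 (SE 0.10, edgeR adjusted p = 1.08e-06), or 3.50-fold. Atpaf1, the chaperone of the F1 beta subunit, was 2.58-fold higher at day 6 than at day 0, although 21.9% of its 50-base sequences also occur in other genes, which leaves its count uncertain.

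**Figure D2:**
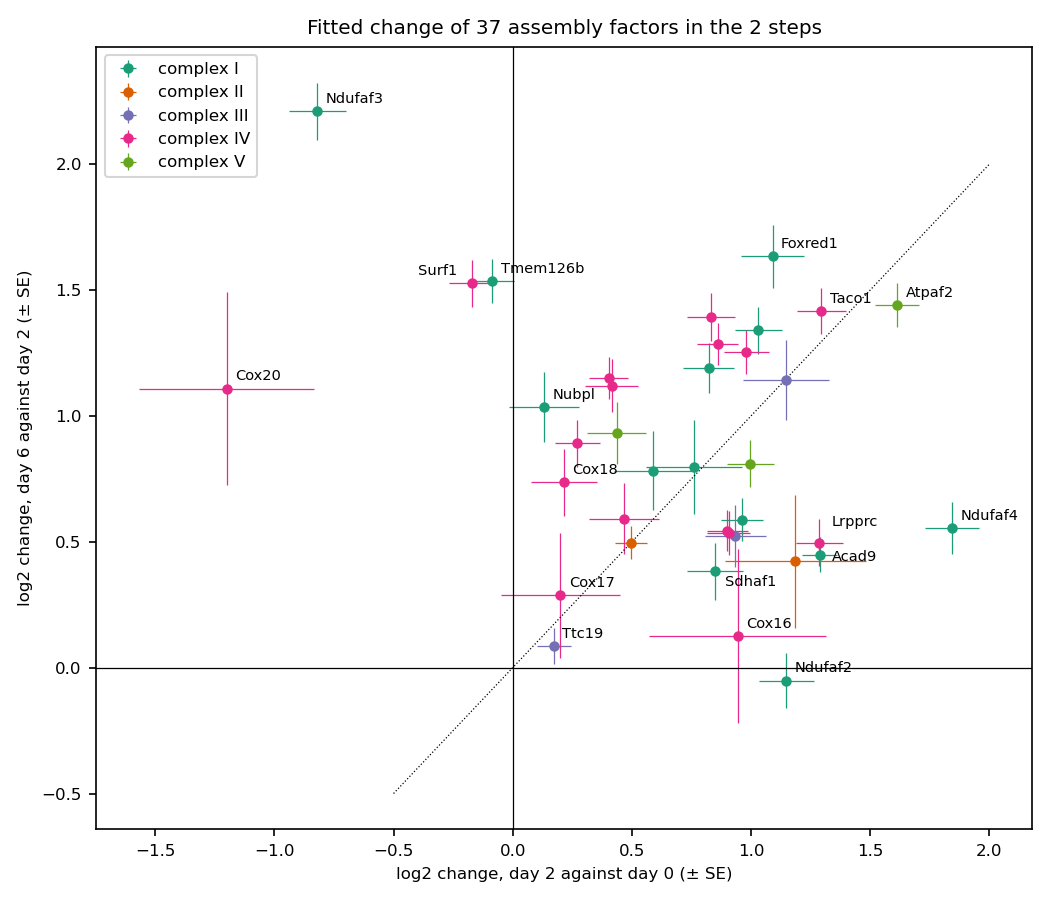
Fitted log2 change with its SE for 37 factors at day 2 against day 0 (horizontal axis) and at day 6 against day 2 (vertical axis), with the dotted line where both are equal and colours for complexes I to V. Ndufaf3 and Cox20 lie left of zero, Surf1 and Tmem126b near zero on the horizontal axis (Tmem126b turns to 0.03 with library totals alone), and Ndufaf4 far to the right. Both axes use the day 2 libraries.

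The signed log2 changes of the 2 steps were also compared directly, a test added after the data were seen. A fall followed by an increase therefore counts as a larger second step, whatever the sizes. The second step exceeded the first in 10 members and the first exceeded the second in 4 (edgeR adjusted p under 0.05), beside 34.7% and 27.3% of all genes. The 4 were Ndufaf4 (difference in log2 change -1.29, SE 0.18), Ndufaf2 (-1.20, SE 0.19), Acad9 (-0.84, SE 0.12) and Lrpprc (-0.79, SE 0.16). The largest difference the other way was that of Ndufaf3, at 3.03 (SE 0.21), followed by Cox20 at 2.31 (SE 0.67), Surf1 at 1.70 (SE 0.17) and Tmem126b at 1.62 (SE 0.16). Ndufaf3 and Cox20 were lower at day 2 than at day 0, and the 2 changes of Cox20 were -1.20 and 1.11. The counts depended on the scaling and on single libraries. They stood at 4 and 14 with library totals alone, and at 8 and 8 with the size factors of DESeq2. Shares of all genes are not given for these settings, so the counts there cannot be set against a background.

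Per kilobase of exon, the mean level ran over more than 2 orders of magnitude. Cox14 was highest, with 180 CPM per kilobase at day 6 and 66.3 at day 0, followed by Coa3 with 102 at day 6 and 45.4 at day 0, and by Tmem70 with 83.8 at day 6 and 24.0 at day 0. Lowest after Sco2 was Cox16, with 0.465 CPM per kilobase at day 6 and 0.218 at day 0. Cox17 had 0.586 at day 6 and 0.414 at day 0, Sdhaf1 0.949 and 0.313, Cox20 0.986 and 1.04, and Lyrm7 2.11 and 0.427.

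Most of the faintest members share an annotation feature. In GENCODE M21 (GRCm38), at least 50% of the coding length of Sdhaf1, Cox17, Sco2, Cox16 and Cox20 lies inside exons of other genes, and at day 6 these 5 had the 5 lowest levels per kilobase. At day 0 they took 5 of the 7 lowest places, and Lyrm7 and Nubpl, neither of them overlapped, took the others. Reads there can be called ambiguous by HTSeq and given to no gene. The coding sequence of Cox17 lies wholly in the same-strand locus Gm21987, which had 0 counts in all libraries, and that of Sdhaf1 wholly in the opposite-strand gene E130208F15Rik, also at 0. The coding sequence of Sco2 is covered in full, 67.8% of it on its own strand by Tymp, which had 22 to 53 counts, and Ncaph2 overlaps it on the other strand. That of Cox20 is covered over 88.9% by Hnrnpu on the other strand, and that of Cox16 over 74.3% by the same-strand Gm20498, which had 2 to 8 counts. Over all exon bases the pattern was less regular. The overlap was then 4.45% for Cox17, which has 5773 exon bases beside 189 coding bases, and 56.8% to 91.8% for the others. It was 65.65% for Ndufaf2 and 48.35% for Cox11, which ranked 24 and 10 per kilobase at day 0. Whether overlap set the low counts of the 5 was not tested, and no source used here gives the annotation or strand setting of the counts. Without these 5 genes, 33 of 33 members were higher at day 6 than at day 0 (35.9% of all genes). The 5 include untested Sco2 and both members that missed that test, Cox17 and Cox20. Of the 4 tested among the 5, 2 were higher. Of the 33, 27 were higher and 1 lower at day 2 than at day 0 (33.6% and 33.6% of all genes). At day 6 against day 2, 31 were higher and 0 lower (38.2% and 27.5% of all genes).

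**Figure D3:**
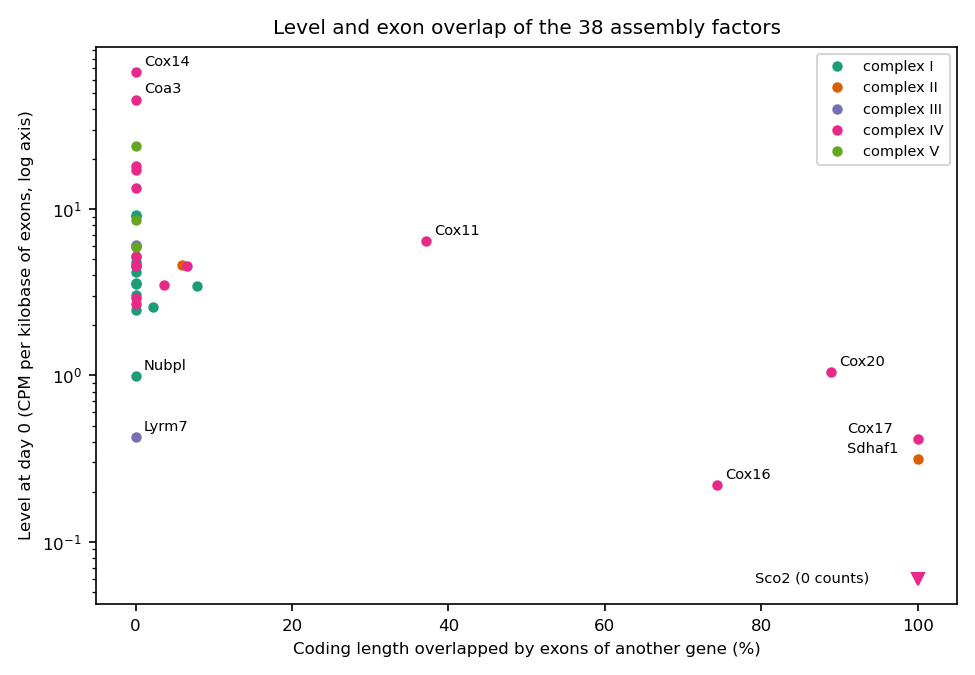
Share of each member's coding length that lies in exons of other genes (horizontal axis, percent) against its mean day 0 level per kilobase of exon (vertical axis, log10 scale). The 5 members at 50% or more all lie at or below the 1.04 CPM per kilobase of Cox20, and the triangle marks Sco2, which had 0 counts.

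The factors were set beside the subunits that they assemble. At day 6 against day 0 the factors had a median log2 change of 1.46, and the 77 nuclear subunit genes of complexes I to V one of 2.47, with 76 of 77 subunits higher and 0 lower. The median was 1.55 for the factors of complex I and 2.38 for its subunits. For complex II it was 1.30 for factors and 2.74 for subunits, for complex III 1.46 and 2.97, for complex IV 1.44 and 2.58, and for complex V 1.81 and 2.36. At day 2 against day 0 the medians were close, at 0.85 for factors and 0.86 for subunits, and at day 6 against day 2 they were 0.81 and 1.58. Only Atpaf2, Foxred1 and Taco1 had a log2 change at day 6 against day 0 above the subunits' median. A log2 change over 2 was reached by 10 of 37 factors and by 63 of 77 subunits. Subunit genes with large changes were Uqcrfs1, which encodes the Rieske protein, at 17.1-fold (SE 0.11 on the log2 scale, edgeR adjusted p = 3.69e-08), and Cox7a1, a subunit of complex IV, at 52.7-fold (SE 0.25, edgeR adjusted p = 3.34e-07). The exception was Atpif1, an inhibitor of complex V, with a day 6 log2 change of -0.23 against day 0 (edgeR adjusted p = 0.0708). Of the protein genes of the mitochondrial genome, 12 of 12 tested were higher at day 6 than at day 0 (35.9% of all genes), with a median log2 change of 2.79. Counts of mt-Co2, mt-Co3, mt-Atp6 and mt-Atp8 were only 15 to 348, and mt-Nd4l, with 0 counts, was not tested.

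**Figure D4:**
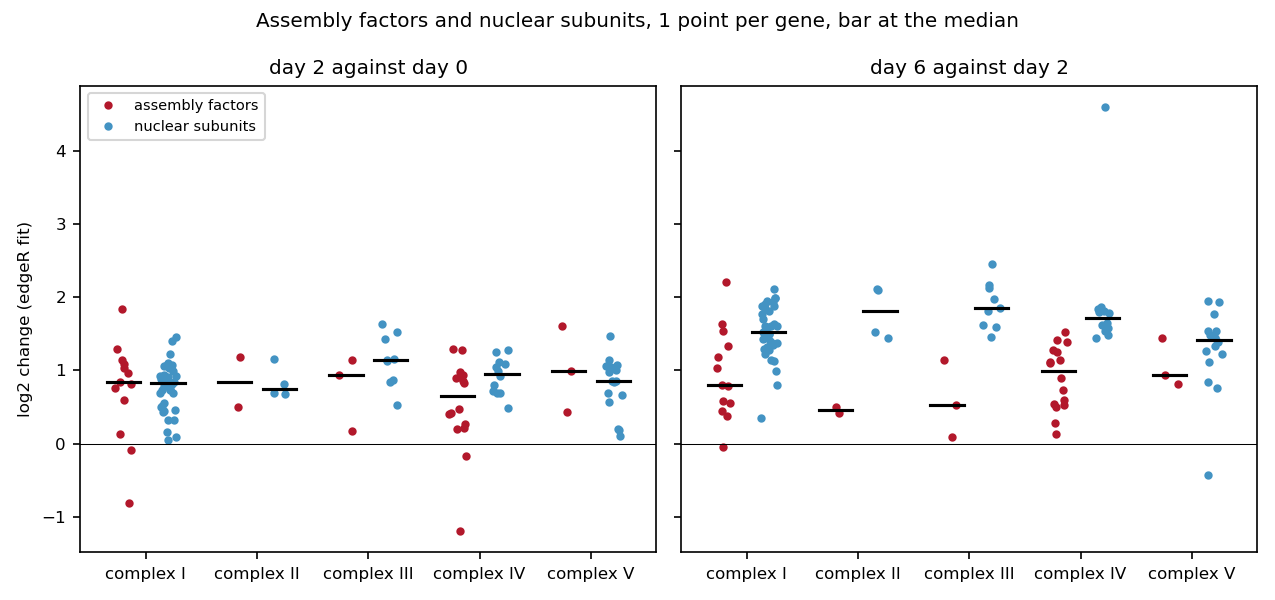
Fitted log2 change of assembly factors (left, red) and nuclear subunits (right, blue) of complexes I to V, 1 point per gene with a bar at the median, at day 2 against day 0 (left panel) and at day 6 against day 2 (right panel). In the left panel the medians of complex I are 0.85 for factors and 0.83 for subunits, and in the right panel 0.80 and 1.52.

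The balance of factor to subunit RNA was followed as a ratio within each library, which library scaling does not alter. Factor RNA per 100 CPM of subunit RNA was 11.5 and 11.4 in the day 0 libraries, 10.5 and 10.6 in those of day 2, and 6.04 and 6.39 in those of day 6. The day 6 libraries lay below those of days 0 and 2, while summed factor RNA itself was 678 and 675 CPM at day 0, 1177 and 1111 CPM at day 2, and 2333 and 2039 CPM at day 6. For complex III the ratio was 7.53 and 7.42 in the day 0 libraries, 4.91 and 5.03 in those of day 2, and 1.55 and 1.77 in those of day 6. For complex II it was 8.36 and 8.01 in the day 0 libraries, 6.47 and 6.68 in those of day 2, and 2.30 and 2.60 in those of day 6. Both complexes thus had separate ratios on each day, lowest at day 6, and so did each of the complexes below. For complex IV it was 31.5 and 31.0 in the day 0 libraries, 28.3 and 29.2 in those of day 2, and 16.3 and 17.7 in those of day 6. For complex I it was 10.5 and 10.4 in the day 0 libraries, 11.2 and 11.5 in those of day 2, and 7.08 and 7.35 in those of day 6, and for complex V 3.80 and 3.69 in the day 0 libraries, 4.17 and 3.82 in those of day 2, and 2.72 and 2.83 in those of day 6. In these complexes the day 2 ratio of I and V was above that of day 0 and that of IV below it. The ratios are sums that genes with high counts dominate, and they were not tested.

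**Figure D5:**
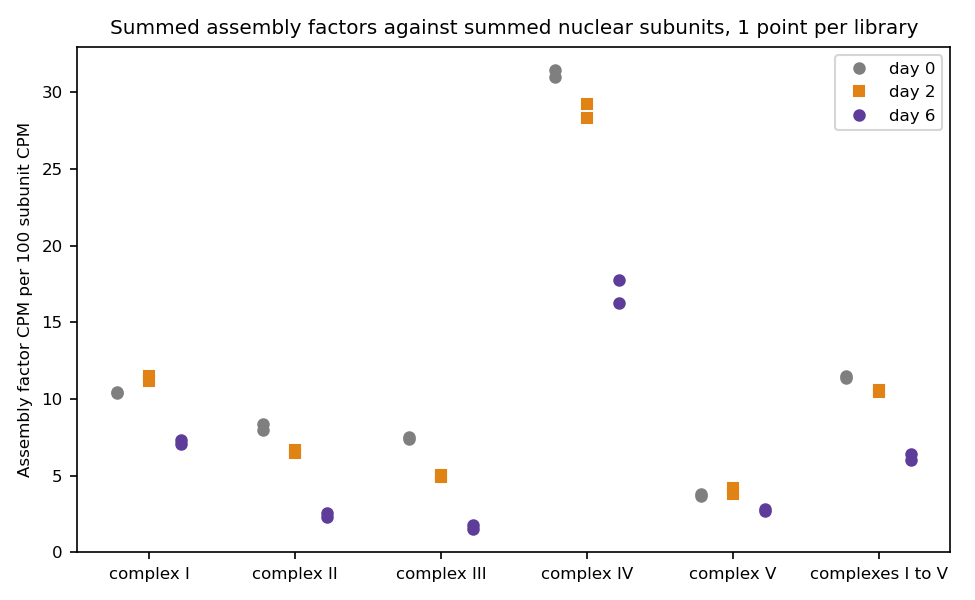
Factor RNA per 100 CPM of nuclear subunit RNA in each library, by complex, at days 0, 2 and 6. In each complex both day 6 libraries lie below all libraries of days 0 and 2, at 1.55 and 1.77 for complex III.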

How the data were processed

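The authors deposited a table of read counts, with 1 column for each library. Its headers carry the word RPKM, yet the columns hold whole numbers that end in the 5 summary lines of HTSeq, which stayed out of library sizes and tests (2.62% to 3.23% no feature, 4.40% to 4.91% ambiguous, 4.16% to 9.05% not unique). Polyadenylated RNA was enriched and primed with random hexamers, per the labels' protocols. Alignment used TopHat2 2.0.13, counting used HTSeq 0.9.1, and mm10 and GRCm38 are named as builds, per the submitters' processing notes. No source used here gives the annotation, strand or overlap settings. Reads carry no molecular identifiers, so floors cover counting error only.

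Counts of all 6 libraries entered 1 edgeR 4.0.16 quasi-likelihood fit (R 4.3.3) with TMM factors (0.849 to 1.12), filterByExpr (14459 of 45808 genes kept), a mean per day and 3 residual degrees of freedom, with Benjamini-Hochberg adjustment over all genes and a threshold of 0.05. DESeq2 1.42.0, other scalings, no filter, a replicate block, fits of 2 days and leaving out each library were alternatives. Coding overlap and 50-base sharing came from GENCODE M21 and promoters from RefSeq, both on GRCm38.

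Members, lists and motifs were chosen with earlier results of these data known. Full values were given for members that moved against their class and for the 2 largest day 6 changes per complex (4 for complexes I and IV). Other named members were picked after their values were seen. Replicate libraries differed beyond counting noise, at a chi-square per degree of freedom of 6.75, 7.53 and 26.3 for days 0, 2 and 6.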

Additional observations from a re-analysis of the deposited data

How the results depend on the processing

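Of the 35 day 6 against day 0 calls, 33 held in every setting. For day 2 against day 0, 23 of 30 held, and for day 6 against day 2, 21 of 32. Members lower at day 2 against day 0 numbered 1 with DESeq2 and 1 without the members mostly overlapped, against 2 before, and 1 to 2 with single libraries left out. With library totals alone, 21 members were higher at day 6 against day 2 and 2 lower, Ndufaf2 at -0.41 and Ttc19 at -0.27 on the log2 scale. That scaling shifts the median of all genes to 0.12, -0.23 and -0.26 in the 3 comparisons, and leaving out day 0 library 77 shifts the first to 0.15. By signed log2 change, the second step was the larger in 4 members and the first in 14 with library totals alone. The second was larger in 4 with DESeq2, and the first in 8 with the size factors of DESeq2. Shares of all genes are not given for these settings. With single libraries left out, the second step was the larger in 4 to 13 members and the first in 4 to 8. Some members turned direction. For day 2 against day 0, Tmem126b stood at 0.026 with library totals alone and at -0.085 to 0.060 without single libraries. For day 6 against day 2, library totals alone gave -0.27 for Ttc19, -0.072 for Cox17 and -0.24 for Cox16, and a fit of only those 2 days gave -0.046 for Ttc19 and -0.0047 for Cox16. Without single libraries, that change was -0.052 to 0.10 for Ttc19, -0.19 to 0.028 for Ndufaf2 and -0.26 to 0.41 for Cox16. At day 6 against day 0, Cox20 stood at -0.27 to 0.15 without single libraries. The cause of these turns was not tested. Leaving out single libraries gave 24 to 30, 29 to 31 and 33 to 35 members higher in the 3 comparisons (day 2 against day 0, day 6 against day 2, day 6 against day 0), with medians of 0.80 to 1.03, 0.67 to 0.95 and 1.40 to 1.59. A day with 1 library left is assumed to vary like the others.

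Libraries of the same number deviated together weakly (Pearson r 0.11 for days 0 and 2, 0.11 for days 0 and 6, 0.21 for days 2 and 6, across genes, which are not independent replicates). Each comparison has only 2 pairs and what the numbers mark is not given, so they were not treated as paired. With the replicate block, 29 members were higher and 2 lower at day 2 against day 0, 32 and 0 at day 6 against day 2, and 35 and 0 at day 6 against day 0.

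Depth limits the members with under 100 counts in every library: Sdhaf1, Cox16, Cox17, Cox20 and Sco2.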

Other observations

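A list of 25 further assembly factors was looked at beside the 38. Of these, 24 had a line in the table, Coa1 was not matched, and Pet117, with 0 counts in all libraries, was not tested. At day 6 against day 0, 21 of the 23 tested were higher and 0 lower, with a median log2 change of 1.31, beside 35.9% of all genes higher and 35.1% lower. At day 2 against day 0, 12 were higher and 1 lower (33.6% and 33.6% of all genes), and at day 6 against day 2, 19 were higher and 0 lower (38.2% and 27.5% of all genes). The largest changes at day 6 against day 0 were in Fmc1, a complex V factor listed under 1110001J03Rik, at 6.26-fold (SE 0.16 on the log2 scale, edgeR adjusted p = 2.23e-06), and in Uqcc1, a factor for cytochrome b of complex III, at 5.53-fold (SE 0.10, edgeR adjusted p = 2.30e-07). Uqcc2, which acts with Uqcc1, had 40.2 and 38.1 CPM at day 0, 39.6 and 32.8 CPM at day 2, and 39.6 and 35.1 CPM at day 6. Its log2 change at day 6 against day 0 was -0.07 (SE 0.11, edgeR adjusted p = 0.585), so the days were not distinguishable by this test. Smim20, a factor for subunit 1 of complex IV, was the gene lower at day 2, at a log2 change of -0.43 (SE 0.11, edgeR adjusted p = 0.00656). It was 2.87-fold higher at day 6 than at day 2 (edgeR adjusted p = 5.03e-06).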
